A study of Mus musculus with 4 samples.

Results

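Chromatin immunoprecipitation followed by sequencing (ChIP-seq) of acetylated lysine 9 of histone H3 (H3K9ac) was compared between leukaemic bone marrow labelled tg and WT. The genes described here are the 234 of 9615 genes (2.43%) to which the deposited table assigns 4 or more probes, a probe being a site whose reads were counted. They hold 1401 of 13126 gene-probe assignments (10.7%). The tg library came from bone marrow with floxed Gfi1b on both alleles (fl/fl), the NUP98/HOXD13 transgene and the MxCre transgene. The WT library carried the same floxed Gfi1b and the same NUP98/HOXD13 transgene, and its MxCre status was wt, so WT names the absence of Cre and not healthy marrow. Each group is 1 library, made from bone marrow cells after lysis of erythrocytes. The labels give neither the age, the number of animals pooled nor the induction of Cre, which in the Mx-Cre model is driven by an interferon-responsive promoter in many tissues besides blood. IgG libraries of both genotypes belong to the series and were not analysed here.

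H3K9ac is placed by histone acetyltransferases and removed by histone deacetylases, and it marks active promoters and enhancers. Genes of cell identity often carry several acetylated sites, at alternative promoters and at enhancers inside or beside the gene. GFI1B is a zinc finger repressor of erythroid and megakaryocytic cells and of blood stem cells, which recruits the demethylase LSD1 and histone deacetylases to its targets. NUP98-HOXD13 is a fusion protein that causes myelodysplasia and acute leukaemia in mice and is known to keep Hoxa genes active.

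The members were chosen by the number of probes, and the sources used here do not say how probes were placed. The levels and the difference between the libraries come from reads at these same probes, and all of them are given as descriptions. With 1 library per group there is no replicate check, no test and no p-value.

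The promoters of 6 members are printed below, to show the sequence at the start of the genes that the results turn on: Sox6, Gfi1b and Tal1, which were higher in tg, Coro2a and Irf8, which were lower in tg, and Zbtb20, a lower gene with many probes. Each runs 5′ to 3′ on the gene's own strand from 250 bases before to 50 bases after a start listed by RefSeq (GRCm38.p6). RefSeq lists 6 promoters for Sox6, 2 each for Tal1, Coro2a and Irf8 and 1 each for Gfi1b and Zbtb20, and the first in the table is shown. Capitals mark matches, on either strand, to the GATA letters AGATAA or TGATAA, to the ETS-type letters GAGGAA, to TGACTCA or to CACGTG.
Sox6: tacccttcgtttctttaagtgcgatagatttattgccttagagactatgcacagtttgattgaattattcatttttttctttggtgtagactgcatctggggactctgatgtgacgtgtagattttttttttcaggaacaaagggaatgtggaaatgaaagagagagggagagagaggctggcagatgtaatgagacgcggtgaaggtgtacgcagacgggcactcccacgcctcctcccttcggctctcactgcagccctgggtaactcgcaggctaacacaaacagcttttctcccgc
Gfi1b: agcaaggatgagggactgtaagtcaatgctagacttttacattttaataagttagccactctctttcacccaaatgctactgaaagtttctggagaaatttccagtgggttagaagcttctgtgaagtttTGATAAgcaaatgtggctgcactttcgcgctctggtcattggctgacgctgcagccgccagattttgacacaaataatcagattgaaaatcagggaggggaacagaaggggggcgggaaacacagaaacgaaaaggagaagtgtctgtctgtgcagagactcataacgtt
Tal1: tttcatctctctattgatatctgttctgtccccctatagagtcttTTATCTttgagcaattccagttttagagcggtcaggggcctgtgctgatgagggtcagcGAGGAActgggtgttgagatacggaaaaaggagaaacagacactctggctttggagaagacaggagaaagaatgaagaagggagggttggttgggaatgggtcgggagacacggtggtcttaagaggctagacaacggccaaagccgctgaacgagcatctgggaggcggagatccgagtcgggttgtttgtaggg
Coro2a: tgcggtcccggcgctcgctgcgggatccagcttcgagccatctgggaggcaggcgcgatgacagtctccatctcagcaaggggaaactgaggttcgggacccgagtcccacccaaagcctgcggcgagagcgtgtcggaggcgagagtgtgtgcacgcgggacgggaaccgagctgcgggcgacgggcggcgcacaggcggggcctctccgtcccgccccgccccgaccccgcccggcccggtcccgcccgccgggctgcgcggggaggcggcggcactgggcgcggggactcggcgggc
Irf8: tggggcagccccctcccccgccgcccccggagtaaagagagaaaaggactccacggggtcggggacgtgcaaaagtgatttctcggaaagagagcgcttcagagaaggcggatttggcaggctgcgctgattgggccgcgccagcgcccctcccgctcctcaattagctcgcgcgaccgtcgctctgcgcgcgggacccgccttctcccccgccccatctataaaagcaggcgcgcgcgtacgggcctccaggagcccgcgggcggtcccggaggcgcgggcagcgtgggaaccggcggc
Zbtb20: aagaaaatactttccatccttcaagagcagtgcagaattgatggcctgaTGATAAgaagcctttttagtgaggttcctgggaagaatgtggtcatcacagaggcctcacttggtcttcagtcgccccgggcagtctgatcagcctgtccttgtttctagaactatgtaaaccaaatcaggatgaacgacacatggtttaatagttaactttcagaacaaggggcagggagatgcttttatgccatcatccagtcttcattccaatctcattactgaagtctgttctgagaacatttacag
These windows are chr7:116038695-116038994 (minus strand) for Sox6, chr2:28621933-28622232 (minus strand) for Gfi1b, chr4:115056176-115056475 (plus strand) for Tal1, chr4:46601880-46602179 (minus strand) for Coro2a, chr8:120736108-120736407 (plus strand) for Irf8 and chr16:43247034-43247333 (plus strand) for Zbtb20. GC content was 76.0% in the Coro2a window and 70% in the Irf8 window, and it lay between 43.3% and 50.7% in the other 4. A GATA match stood in the Gfi1b, Tal1 and Zbtb20 windows and in none of the Sox6, Coro2a and Irf8 windows. The table gives no probe positions, so no probe can be placed in or outside these windows.

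Across members, 186 had a RefSeq promoter (the first listed for the gene). A GATA match stood in 12.4% of them, against 9.29% of 5092 promoters of genes with 1 probe and 19.0% of all 27025 promoters in the RefSeq table. Among members that were 2-fold or more higher in tg the share was 14.5% of 55 promoters, and among those 2-fold or more lower in tg it was 20.0% of 45. The letters GAGGAA stood in 27.4% of member promoters, against 25.4% of those of 1-probe genes and 28.3% of all. TGACTCA stood in 3.23%, 3.02% and 5.17% of these sets in the same order, and CACGTG in 10.8%, 10.7% and 7.24%. For all 4 motifs the member promoters were within a few percentage points of the promoters of 1-probe genes.

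Most members were near the threshold. Exactly 4 probes were assigned to 117 of the 234 members, 5 to 41, 6 to 28, 7 to 10, 8 or 9 to 13, and 10 or more to 25. Above 17 probes there were 2 genes, Fgfr2 with 20 and the model Gm20388 with 75. Just outside the threshold stood 386 genes with 3 probes. Their median length was 43984 bp, against 68699 bp for the genes with 4 probes.

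Members were longer than other genes. The median length (End minus Start) was 93052.5 bp over the 234 members, with quartiles of 31259.8 and 176066 bp, and 21977 bp over the 9381 genes with 1 to 3 probes. The share of genes that were members was 0.649% below 10 kb (17 of 2619), 3.15% from 50 to 100 kb, 7.93% from 100 to 200 kb and 14.5% from 200 to 500 kb (45 of 310). Length and probe number were nonetheless loosely ordered among the members, with a Spearman correlation across these 234 genes of 0.28. The density of probes was 5.85 per 100 kb in the median member and 5.34 in the median gene with 1 to 3 probes.

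The shortest and the longest members show the range. Tomm6, a subunit of the mitochondrial import channel, spans 1740 bp and holds 4 probes. Prickle4 and the model Gm14872 have identical reads at their 4 probes in both libraries, so these probes may be shared between the genes. The RNA-binding gene Zfp36l2, the thioredoxin inhibitor Txnip, the lymphoid GTPase Gimap6 and the cytokine signalling inhibitor Cish were the other 4 of the 5 shortest named members. At the other end, the cAMP phosphodiesterase Pde4d has 8 probes (0.532 per 100 kb) and Arfip1 has 5 (0.359 per 100 kb). Zbtb20, a zinc finger repressor, has 17 probes, and Foxp1, a forkhead factor of B cell and monocyte development, has 11.

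**Figure D1:**
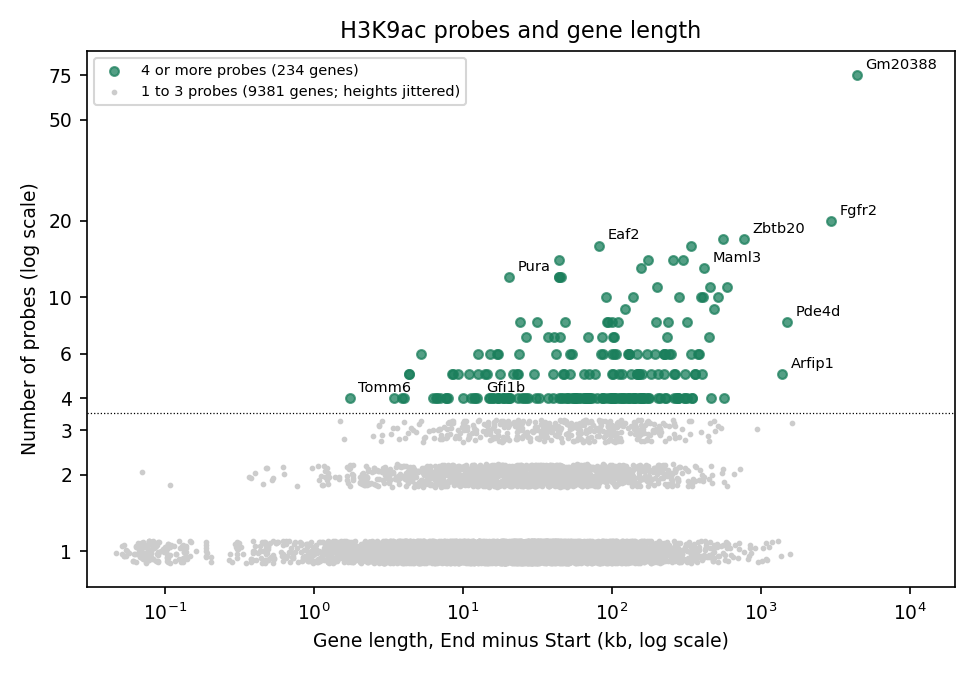
Number of probes (log scale) against gene length in kb (log scale) for the 234 members (green) and the 9381 genes with 1 to 3 probes (grey, with jittered heights). The dotted line is the threshold of 4 probes, and Gm20388 stands alone at 75 probes.

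Some spans are wider than the gene. Of 225 members found in RefSeq, 186 had a span within 20% of the RefSeq one, and 11 had a span over 3 times as long. The growth factor receptor gene Fgfr2 spans 2960899 bp in the table and 104358 bp in RefSeq, and 16 other genes of the table lie inside its span. Arfip1 has a span 16.1 times the RefSeq one, Glod4 5.27 times and the RNA methyltransferase gene Nsun2 4.29 times. Gm20388 runs over 4434881 bp of chromosome 8 (119910841 to 124345722) and has 38 other genes of the table inside it, the members Gse1, Irf8, Zfpm1 and Cbfa2t3 among them. The 234 members fall into 213 separate loci once overlapping members are joined, and 14 members lie inside another member. Probe counts are therefore not independent between such genes. Sp3 and Gm11084, for example, have identical values in both libraries.

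The difference between the libraries is the tg mean minus the WT mean of the deposited log2 values, each averaged over the gene's probes. A value of 1 is a 2-fold difference. Among members 70 of 234 (29.9%) were 2-fold or more higher in tg, where 16.5% of all genes were, and 58 (24.8%) were 2-fold or more lower in tg, where 15.8% of all genes were. The remaining 106 lay within 2-fold. Differences of 4-fold or more were found in 42 of the 234 members on the higher side and 17 on the lower side. Over all 9615 genes they were found in 525 on the higher side and 529 on the lower side. The median difference was 0.15 over the members and 0.045 over all genes. The SD over genes was 1.68 for members and 1.27 for all genes.

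The spread grew with the number of probes up to 4. The SD over genes was 1.25 for genes with 1 probe, 1.38 for 3 probes and 1.68 for 4 probes. The share past 2-fold in either direction was 30.4%, 45.9% and 52.1% in these classes and 54.7% over all members. Just outside the threshold, 112 of the 386 genes with 3 probes were higher in tg and 65 were lower. Just inside it, 31 of the 117 genes with 4 probes were higher and 30 were lower. The middle classes leaned to tg. Of 41 genes with 5 probes 16 were higher and 5 lower (median difference 0.54). Of 28 genes with 6 probes 14 were higher and 4 lower (median 0.87). By the same rule 16.5% of all genes were higher and 15.8% lower.

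Genes with the most probes leaned the other way. Of the 25 members with 10 to 75 probes, 13 were 2-fold or more lower in tg and 1 was higher, where 15.8% of all genes were lower and 16.5% higher. The median difference of these 25 was -1.14. The higher one was Maml3, a coactivator of Notch signalling, with 13 probes and a difference of 1.34. Among the lower ones were the homeobox gene Hmbox1 (-2.46), the adenosine kinase Adk (-2.19), the scaffold gene Gphn (-2.18), Zcchc7 (-2.10) and Zbtb20 (-2.09). Eaf2, a partner of the elongation factor ELL, had -1.61, and Iqcb1, which lies inside its span, had -1.70. Several of the 25 share spans, so they are fewer than 25 separate regions. Across all members the number of probes and the difference were unrelated in order (Spearman correlation -0.035), and length and difference had a correlation of -0.19.

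**Figure D2:**
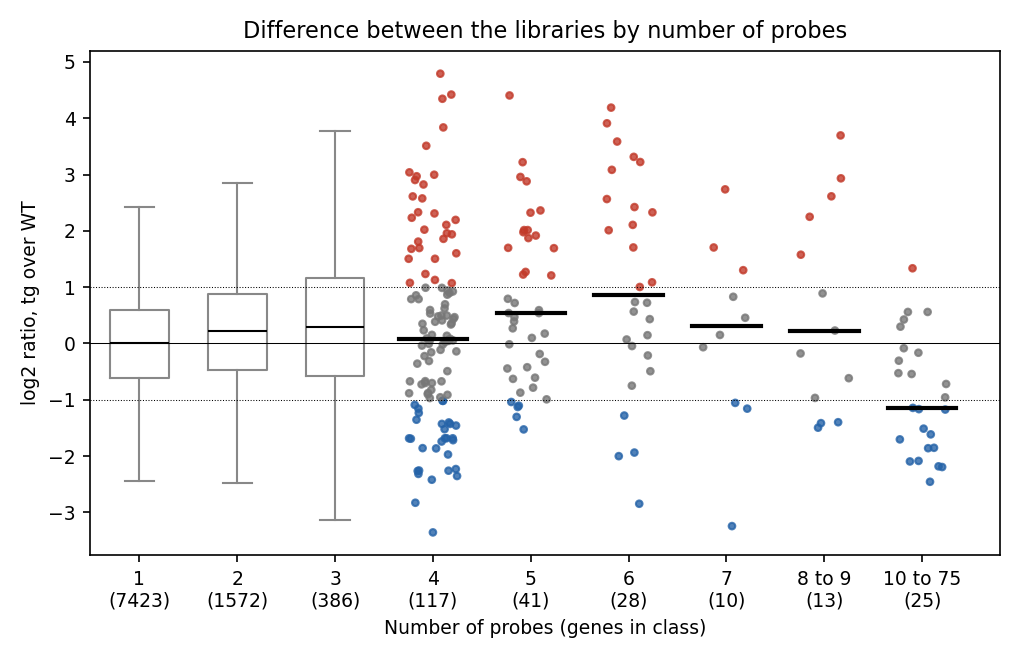
Difference between the libraries (log2, tg over WT) by number of probes, with the number of genes in each class in parentheses. Boxes show the median and quartiles for 1 to 3 probes, with whiskers at 1.5 times the interquartile range and points beyond them not drawn. Points are single members, coloured past 2-fold, and black bars are medians, which lie at 0.87 for 6 probes and at -1.14 for 10 to 75 probes.

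Averaged over their probes as log2 values, the members were low in level. The median level over members was 5.42 in tg and 5.21 in WT (log2 scaled reads, mean over probes), against 5.97 in tg and 5.94 in WT over all genes. In only 26 of the 234 members (11.1%) did the level over both libraries reach the median of all genes. For this, the log2 mean over probes was made linear in each library and then averaged over both. A mean of log2 values lowers genes with uneven probes and leaves genes with 1 probe unchanged, so the measure is not alike for them and the members. The 5 highest named members were Hoxa9, Zfp36l2, the chemokine-like gene Cmtm7, E2f2 and the bromodomain gene Baz2b. Zfp36l2 had 2, 7, 11 and 34 reads in tg, against 9, 29, 50 and 251 in WT, and was 3.32-fold lower in tg by summed reads. Cmtm7 had 3, 4, 8 and 27 reads in tg, against 21, 30, 41 and 137 in WT (2.88-fold lower), so its tg probes overlapped its WT probes only at the tallest. Per probe, the median member had 9.67 reads in tg and 14.7 in WT, and the median gene with 1 probe had 11 reads in tg and 22 in WT. The scaling totals, worked out from the values, were 163712 reads in tg and 309649 in WT, so that 1 read is worth 6.11 scaled reads in tg and 3.23 in WT.

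Levels in the libraries ran in opposite order among the members. The Spearman correlation between the tg and the WT level was -0.46 across the 234 members, against 0.64 across the 7423 genes with 1 probe. It was 0.24 for 2 probes, -0.013 for 3, -0.36 for 4, -0.44 for 5 and -0.68 for 6. The correlation was -0.10 for the 25 members with 10 to 75 probes. No gene with 1 probe had fewer than 9 reads over both libraries, and none of the 189 members with recovered reads had fewer than 10 reads per probe on average. The part of such a lower bound in the opposite order was not tested. Genes also share the libraries, their depth and in places their probes, so the correlation describes these 2 libraries only.

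**Figure D3:**
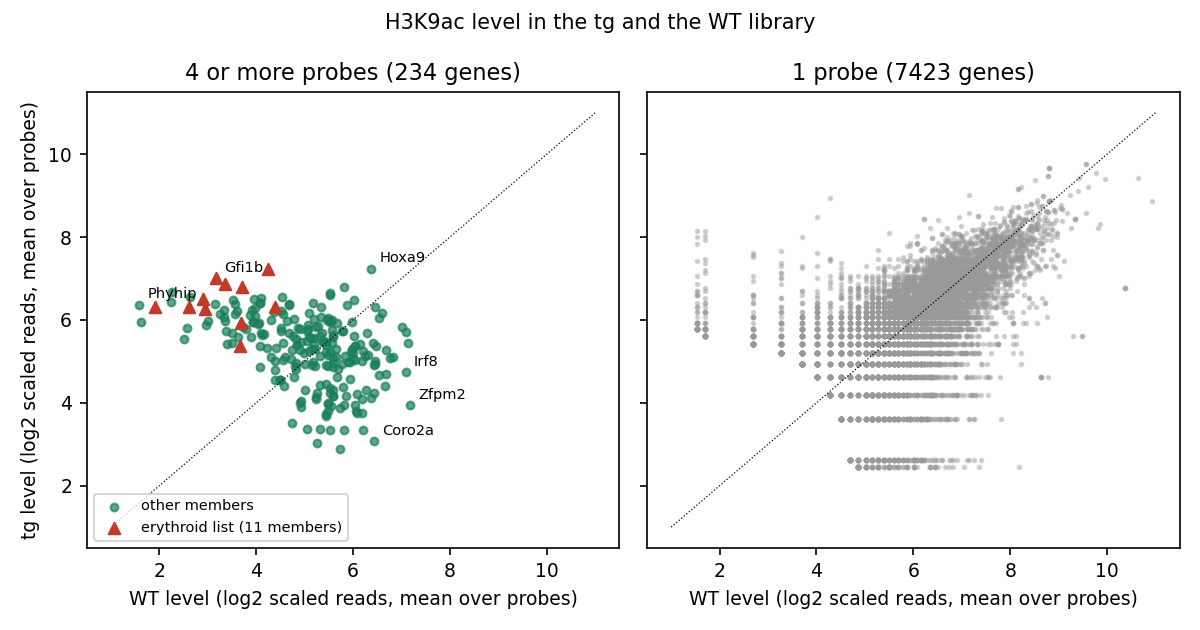
Level in tg (vertical axis) against level in WT (horizontal axis), both as log2 scaled reads averaged over a gene's probes, for the members and for genes with 1 probe. Red triangles are the 11 members on the erythroid list, all above the dotted line of equal levels, and the member points slope downwards with a Spearman correlation of -0.46.

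Reads of single probes could be recovered for 189 members with 4 to 9 probes, because only 1 set of whole numbers fitted the mean and the standard deviation in each library. The recovered reads are listed from low to high within a library, and probes cannot be paired between libraries. The tallest probe was taken in each library separately, so a fold between tallest probes may compare different sites. Folds of summed reads are scaled by the library totals, and their 95% intervals (exact binomial) cover counting error only. They exclude 1 on the higher side in 69 of the 189 members and on the lower side in 56, together 66.1%. Over all genes with recovered reads they do so in 13.0% on the higher side and 12.8% on the lower side. Members sum more probes and so more reads, which narrows the intervals. Their median sums were 46 reads in tg and 70 in WT, against 11 in tg and 22 in WT for genes with 1 probe. The share of intervals that exclude 1 was 22.5% for genes with 1 probe, 31.5% for 2, 46.7% for 3 and 65.8% for 4. By summed reads 52 of the 189 were 2-fold or more higher in tg, against 14.9% of all genes, and 34 were lower, against 15.3%.

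Erythroid members all lay on 1 side. Of 37 listed erythroid genes with a probe, 11 were members (29.7%), and all 11 were 2-fold or more higher in tg, where 16.5% of all genes were. Their median difference was 3.31, with a range of 1.71 to 4.42, against 0.15 over all members. Of the 26 listed genes with 1 to 3 probes, 23 were higher, 1 was lower and the median was 2.52. In the 9 of the 11 members with recovered reads, no probe of 43 was at 0 reads in tg, and 3 of 43 (6.98%) were at 0 in WT. The count of 0 in tg would allow a share of up to 6.98% if the probes were independent. By summed reads 8 of these 9 were 2-fold or more higher, and the exception was Lmo2.

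Transcription factors of the red cell line had differences of 3.51 to 4.42 among the Sox6, Gfi1b, Tal1 and Zfpm1 genes. Sox6, which silences embryonic globin and supports red cell maturation, had probes of 8, 11, 16 and 21 reads in tg, against 0, 1, 1 and 2 in WT. Every tg probe was above every WT probe, and summed reads were 26.5-fold higher (9.78 to 101). Gfi1b, the floxed gene itself, had 8, 18, 23 and 59 reads in tg, against 2, 2, 3 and 5 in WT, a 17.0-fold difference (9.36 to 34.0). The position of its probes relative to the floxed part is not given, so its level checks nothing about the deletion. Tal1, a helix-loop-helix factor needed for blood formation, had 4, 10, 10, 13, 17 and 117 reads in tg, against 0, 0, 1, 3, 5 and 13 in WT (14.7-fold, 9.40 to 24.1). In unscaled reads its tallest WT probe equalled a middle tg probe. In scaled reads that WT probe (42.0) was above only the lowest tg probe (24.4). Zfpm1, which encodes the GATA1 cofactor FOG1, had 8, 10, 21 and 80 reads in tg, against 1, 2, 3 and 17 in WT (9.79-fold, 6.22 to 16).

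Lmo2 and E2f2 differed in their low probes more than in their tallest. Lmo2 is the bridging subunit of the TAL1 and GATA1 complex. Its probes had 6, 8, 15, 21, 26 and 94 reads in tg, against 1, 1, 2, 3, 4 and 190 in WT. The tallest tg probe was 0.936-fold the tallest WT probe after scaling (0.723 to 1.2), and they may be different sites. The other 5 of each library summed to 76 reads in tg and 11 in WT, 13.1-fold higher (6.91 to 27.3). Over all 6 probes its reads were 1.60-fold higher (1.30 to 1.97), under 2-fold. E2f2, a cell cycle factor of late red cell precursors, had 15, 23, 25 and 43 reads in tg, against 2, 3, 5 and 39 in WT. Its tallest tg probe was 2.09-fold above its tallest WT probe, and the others were together 11.9-fold higher (6.07 to 26.0). Ldb1, the partner of LMO2, had 46 reads in tg and 34 in WT (2.56-fold), and the membrane skeleton gene Epb4.1 had 78 in tg and 46 in WT (3.21-fold). Tspan33, a tetraspanin of red cell precursors, and Spnb1, erythroid beta spectrin, have recovered reads in WT only. Tspan33 had 0, 0, 0, 0, 1, 3, 8 and 11 reads in WT, and Spnb1 had 1, 1, 2, 3, 5 and 6. Their levels were 6.32 in tg and 2.62 in WT for Tspan33, and 6.25 in tg and 2.94 in WT for Spnb1.

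Markers of some cell types differed as well. Over all genes 16.5% were 2-fold or more higher in tg and 15.8% lower. All 9 listed erythroid markers were 2-fold or more higher in tg, and 3 of them were at 0 reads in WT. They summed to 353 reads in tg and 71 in WT. These 9 are on the erythroid list too, among its 26 genes with 1 to 3 probes, so they are not separate from it. Of 12 neutrophil markers 4 are in the table, all 4 were lower, and they summed to 8 reads in tg and 82 in WT. Of 7 monocyte markers 6 are in the table, 3 were lower and 1 was higher, with 75 reads in tg and 642 in WT. The member Irf8 is 1 of these 6 and holds 29 of the tg reads and 407 of the WT reads, and the other 5 had a median difference of 0.60, with 2 lower and 1 higher. Of 7 megakaryocyte markers 3 are in the table, 1 higher and 2 lower, with 30 reads in tg and 99 in WT, and 1 of them was at 0 reads in tg. Of 6 B cell markers 2 are in the table, and of 4 T cell markers 1 is, and none of these passed 2-fold. The part of these cell types in the differences of the members was not tested. In whole bone marrow, more cells of a type and more signal per cell cannot be told apart. The Y-linked Uty had 0 reads in tg and 28 in WT, and the Y-linked Ddx3y had 1 in tg and 22 in WT. Of the X-linked members, Gria3 had a difference of -2.23, Klhl4 -1.16 and Stag2 -0.14, and the part of the animals' sex was not tested.

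**Figure D4:**
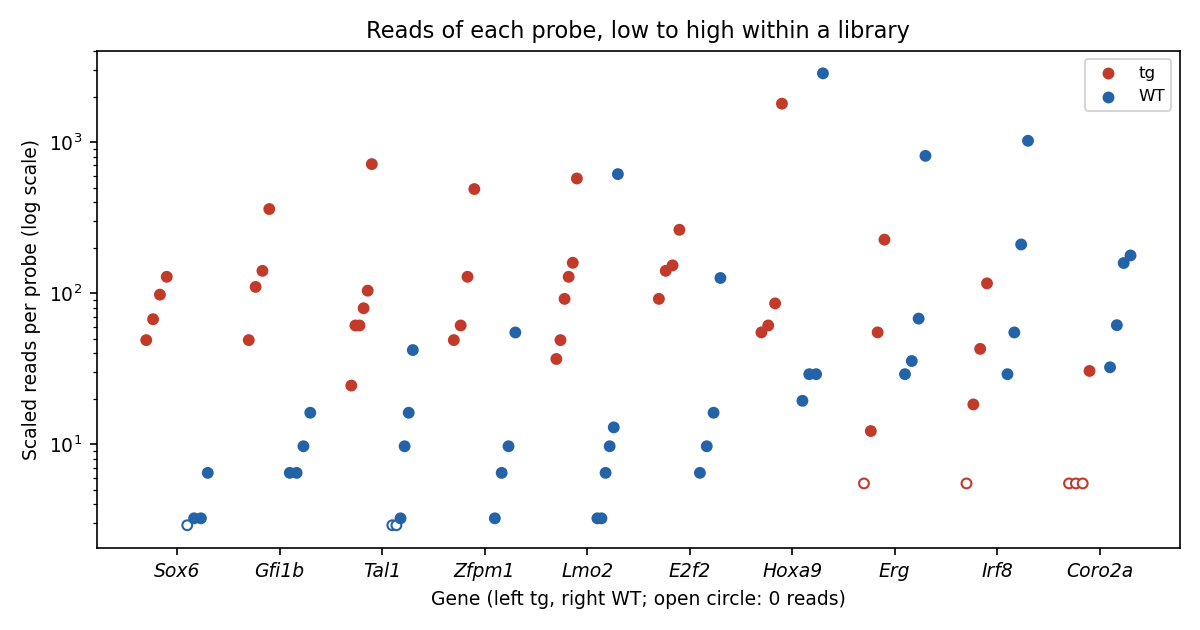
Scaled reads of each probe (log scale) for 10 members, ordered from low to high within tg (left, red) and WT (right, blue). Open circles are probes with 0 reads, drawn at 0.9 of a read. All tg probes of Sox6 stand above its WT probes, and all tg probes of Coro2a stand below its WT probes. The tallest tg and the tallest WT probe of Lmo2, which may be different sites, stand at similar heights.

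Other members with the largest differences towards tg were of mixed function. Phyhip had 11, 13, 13 and 18 reads in tg, against 0, 0, 0 and 1 in WT, and with 1 WT read its fold of 104 has an interval of 17.9 to 4183. Col5a1, a collagen chain, had 6, 9, 18, 22 and 60 reads in tg, against 0, 0, 1, 3 and 3 in WT (31.1-fold, 14.6 to 79.0). Mgll, a lipase of monoglycerides, had 8, 8, 13 and 13 reads in tg, against 0, 0, 1 and 1 in WT (39.7-fold, 10.3 to 339). In these 3 genes the probes of the libraries did not overlap. Cyth3, an exchange factor for ARF GTPases, overlapped in unscaled reads but not in scaled reads, with 8, 9, 10, 14, 26 and 29 reads in tg, against 0, 0, 0, 1, 1 and 13 in WT. Ntn4, a netrin of basement membranes, summed to 103 reads in tg and 14 in WT (13.9-fold). Neu3, a sialidase, summed to 56 in tg and 11 in WT (9.63-fold). The hexokinase Hk1 was even in tg, with 12, 13, 14, 14 and 15 reads in tg, against 0, 2, 2, 4 and 11 in WT. Lipc, the hepatic lipase, had 5, 7, 9 and 11 reads in tg and 0, 0, 2 and 6 in WT, and Pde4d summed to 111 in tg and 32 in WT (6.56-fold). Where a WT probe is at 0, the deposited difference depends on the 0.9 of a read entered for it.

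Of 28 listed cell cycle and growth genes with a probe 4 were members, and 3 of the 4 were higher in tg, where 16.5% of all genes were. The other 24 on the list had a median difference of -0.08, 3 of them higher and 4 lower. Of the 3 higher members, E2f2 and Bcl2l1 are on the erythroid list too. Ccnd3, cyclin D3, had 6, 8, 8, 10, 12, 14, 21 and 22 reads in tg, against 1, 1, 2, 4, 5, 7, 23 and 29 in WT. Its tallest tg probe was 1.43-fold above its tallest WT probe, and the other 7 were together 3.47-fold higher. Bcl2l1, which encodes the survival protein BCL-XL, had 6, 8, 10 and 20 reads in tg, against 1, 3, 4 and 21 in WT. Its tallest tg probe was 1.8-fold above its tallest WT probe, and the others were together 5.67-fold higher. E2f2 was the other gene that passed 2-fold, and Mxi1, a MYC antagonist, had a difference of 0.85. Of 74 listed signalling genes 3 were members. The PI3-kinase subunit Pik3r1 had 4, 8, 10 and 28 reads in tg, against 0, 3, 6 and 41 in WT. Its deposited difference was 1.86 and its summed reads were 1.89-fold higher (1.25 to 2.86), under 2-fold. Cish was higher (1.68) and the RAS inhibitor Nf1 was lower (-1.28). Across that whole list 6 genes were higher and 28 lower, where 16.5% of all genes were higher and 15.8% lower.

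The lowest members in tg had most of their probes near 0 there. Coro2a, of the actin-binding coronin family, had 0, 0, 0 and 5 reads in tg, against 10, 19, 49 and 55 in WT (14.1-fold lower, 5.88 to 44.0). Ccdc21 had 0, 0, 0 and 3 reads in tg, against 12, 14, 17 and 25 in WT (12-fold lower, 3.93 to 59.6). Ddx4, a germ cell RNA helicase, had 0, 1, 1, 2, 3 and 4 reads in tg, against 13, 13, 21, 21, 23 and 80 in WT (8.22-fold lower, 4.48 to 16.8). No tg probe of these 3 genes reached the lowest WT probe in reads. Lrrfip1 had 0, 1, 3 and 9 reads in tg, against 12, 14, 31 and 49 in WT, and Tmem229b had 0, 2, 3 and 5 in tg, against 9, 15, 23 and 58 in WT. Med12l, related to a Mediator subunit, had 2, 2, 4 and 4 reads in tg, against 13, 16, 45 and 46 in WT. Zfpm2, the FOG family member of heart and gonad, has 7 probes with levels of 3.94 in tg and 7.18 in WT. Gpr22, Fam49b and the glutamate receptor gene Gria3 were 5.09-fold, 3.47-fold and 5.29-fold lower by summed reads.

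Stem cell and myeloid factors lay on both sides. Of 28 listed stem and progenitor transcription factors with a probe 10 were members (35.7%). The 3 that were higher in tg, Gfi1b, Tal1 and Lmo2, are factors of the red cell line too, and 2 were lower. Over all genes 16.5% were higher and 15.8% lower. The other 18 factors on the list had a median difference of -0.55, with 3 higher and 8 lower. Among the members, Erg, an ETS factor of stem cells and megakaryocytes, had 0, 2, 9 and 37 reads in tg, against 9, 11, 21 and 251 in WT (3.22-fold lower, 2.36 to 4.46). Etv6, an ETS repressor, was the other lower member. Of 23 myeloid genes with a probe 2 were members. Irf8, which directs monocyte and dendritic cell fate, had 0, 3, 7 and 19 reads in tg, against 9, 17, 65 and 316 in WT (7.42-fold lower, 5.09 to 11.2). Klf13 had 2, 3, 3, 6, 8 and 34 reads in tg, against 4, 7, 11, 11, 21 and 147 in WT, and stayed within 2-fold in the deposited difference (-0.49). Among the 21 myeloid genes with 1 to 3 probes 14 were lower and 1 was higher.

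Hox members did not pass 2-fold. Hoxa9, a homeobox gene of stem cells and of many leukaemias, had 9, 10, 14 and 294 reads in tg, against 6, 9, 9 and 883 in WT. Its tallest tg probe was 1.59-fold lower than its tallest WT probe (1.39 to 1.82), which may be another site. Its other 3 probes were together 2.60-fold higher in tg (1.49 to 4.6). The deposited difference of 0.87 and the summed reads (1.47-fold lower, 1.29 to 1.67) point in opposite directions. Hoxc4 had 3, 5, 6, 6 and 7 reads in tg, against 8, 10, 12, 13 and 14 in WT, a difference of -0.19. The third Hox-list member, the cofactor Pbx3, had -0.53. Neighbouring genes of a Hox cluster can share probes, so these values may not belong to 1 gene alone.

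Of the 3 lymphoid members 1 was 2-fold or more lower in tg, and of the 4 chromatin members 2 were. None of either list was higher by the deposited difference, where 15.8% of all genes were lower and 16.5% higher. Across the whole lists, 3 of 17 lymphoid genes were higher and 7 lower. Of the 64 chromatin regulators 10 were higher and 8 lower, with a median difference of 0.003. Bach2, a repressor of B and T cell development, had 0, 2, 3 and 5 reads in tg, against 10, 11, 16 and 21 in WT. Tcf4, a helix-loop-helix factor of B and plasmacytoid dendritic cells, had 1, 11, 25 and 49 reads in tg, against 6, 24, 31 and 151 in WT, and Foxp1 was the third lymphoid member. Of 64 chromatin regulators with a probe 4 were members. The H3K36 demethylase gene Kdm2b had 1, 5, 10 and 15 reads in tg, against 12, 20, 40 and 57 in WT, a 2.20-fold lower sum. Jmjd1c, of the JmjC family, had 0, 5, 6 and 30 reads in tg, against 6, 14, 27 and 77 in WT (-1.02 in the deposited difference). Arid1a, a subunit of the BAF remodelling complex, had 2, 7, 9, 11 and 57 reads in tg, against 2, 3, 8, 29 and 177 in WT. Its deposited difference was 0.59, and by summed reads it was 1.35-fold lower (1.04 to 1.75). Gse1, the fourth, had 2, 6, 6 and 54 reads in tg, against 6, 7, 12 and 25 in WT. Its deposited difference was 0.50, and its summed reads were 2.57-fold higher (1.76 to 3.78). None of 25 listed interferon-stimulated genes and none of 31 leukocyte surface genes with a probe had 4 probes. Across those lists 17 interferon-stimulated genes were lower and 0 higher, and 15 surface genes were lower and 4 higher.

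Members nearest to equality were Nsun2 (-0.007), the interferon-inducible GTPase Irgm2 (-0.014), the agouti gene a (-0.019), the ubiquitin ligase subunit Rnf31 (0.027) and the microRNA silencing gene Tnrc6b (-0.038). Rnf31 had 4, 5, 6 and 23 reads in tg, against 5, 8, 9 and 91 in WT, and by summed reads it was 1.57-fold lower in tg (1.08 to 2.33). Of the 27 members that are unnamed gene models, 10 were higher and 3 lower in tg, where 16.5% of all genes were higher and 15.8% lower.

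The median StDev between probes was 1.17 in tg (quartiles 0.84 and 1.55) and 1.37 in WT (0.99 and 1.77), in log2 units. StDev was larger in tg in 101 members and in WT in 133. Just outside the threshold, genes with 3 probes had medians of 1.03 in tg and 1.21 in WT. Just inside it, genes with 4 probes had 1.15 in tg and 1.33 in WT, yet StDev was larger in tg in 59 of them and in WT in 58. With 10 to 75 probes it was larger in tg in 13 and in WT in 12. The StDev values of the libraries were weakly ordered together across members (Spearman correlation 0.21).

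StDev went with the direction of the difference. In the 70 members higher in tg the median StDev was 0.85 in tg and 1.74 in WT, and it was larger in tg in 8 and in WT in 62. In the 58 lower members it was 1.28 in tg and 1.15 in WT, and it was larger in tg in 37 and in WT in 21. In the 106 members within 2-fold it was 1.27 in tg and 1.35 in WT. In both the higher and the lower members, the larger median StDev stood in the library with the lower level. The median level was 6.14 in tg and 3.88 in WT over higher members, and 4.15 in tg and 6.04 in WT over lower members. The part of low reads per probe in the spread was not tested. Length differed too, with medians of 65355.5 bp for higher and 130784 bp for lower members, against 99245.5 bp for those within 2-fold.

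Extremes of StDev show how uneven single genes were. Hoxa9 had a StDev of 2.40 in tg and 3.42 in WT, with 89.9% of its tg reads and 97.4% of its WT reads in 1 probe. Tcf4 (2.45), Sp3 (2.40), Erg (2.38) and the thromboxane synthase gene Tbxas1 (2.23) were the other most uneven genes in tg. In WT they were Zbtb25 (2.89), Lmo2 (2.84), the B cell adaptor gene Dapp1 (2.64) and Arid1a (2.63). The most even genes over both libraries were Phyhip, Mgll, Hoxc4, the calcium pump gene Atp2b4 and Glod4. In WT the probes of Phyhip and Mgll had 0 or 1 read, so their small StDev there rests on 0 being entered as 0.9 of a read. Atp2b4 had 5, 5, 5 and 8 reads in tg, against 4, 6, 6 and 10 in WT.

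**Figure D5:**
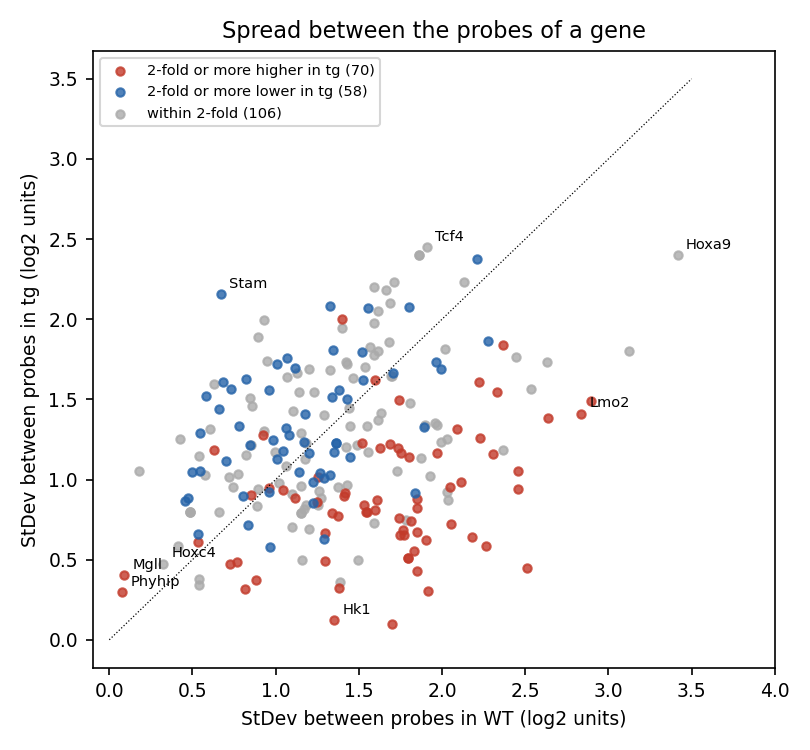
Standard deviation between the probes of a member in tg (vertical axis) and in WT (horizontal axis), in log2 units, coloured by the direction of the difference. Most members higher in tg (62 of 70) lie below the dotted line of equal StDev, and 37 of the 58 lower members lie above it.

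Probes without reads are given by the same split. A probe at 0 lowers the mean of log2 values, and that mean set the direction. The counts by direction follow in part from this grouping and test nothing. Among the 890 recovered probes of 189 members, 36 had 0 reads in tg (4.04%) and 40 in WT (4.49%). Probes shared by overlapping genes count more than once, and probes of 1 library are not replicates, so these shares carry no interval. In higher members 2 of 313 probes were at 0 in tg and 38 in WT. In lower members 26 of 185 were at 0 in tg and 0 in WT. The count of 0 would allow a share of up to 1.62% if the probes were independent. Among members within 2-fold 8 of 392 were at 0 in tg and 2 in WT.

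In members higher in tg the tallest probes, taken in each library separately, differed less than the rest. The tallest probe held 45.8% of the reads in tg and 52.0% in WT in the median of the 189 members, and it held more than 50% in 72 members in tg and 98 in WT. In higher members these medians were 38.4% in tg and 60.0% in WT, and in lower members 53.3% in tg and 44.4% in WT. Summed over the higher members, the tallest probes had 1969 reads in tg and 2034 in WT, a scaled ratio of 1.83, and the other probes had 2565 in tg and 981 in WT, a ratio of 4.95. The ratio of the other probes was above that of the tallest in 56 of 64 higher members. In lower members the tallest probes were 2.84-fold lower and the others 3.35-fold lower, and the others were further from equality in 23 of 41. Within 2-fold the ratios were 0.807 for the tallest and 1.03 for the others, and the others were further from equality in 33 of 84. Over all 189 members the ratios were 0.879 for the tallest and 1.31 for the others. The direction was set by the mean of log2 values, which weighs a low probe like a tall one, so these ratios describe the members and test nothing.

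The weight given to low probes decided the sign in some genes. In 22 of the 189 members the deposited difference and the summed reads had opposite signs. Among members past 2-fold this held for 1, the zinc finger gene Zbtb25. It had 3, 7, 8, 12 and 50 reads in tg, against 1, 2, 2, 6 and 155 in WT, a deposited difference of 1.87 and a summed fold of 0.912 (0.689 to 1.2). Dapp1 was similar in shape, with 8, 9, 12 and 63 reads in tg, against 2, 3, 4 and 107 in WT. Its tallest tg probe was 1.11-fold above its tallest WT probe after scaling, and the others were together 6.09-fold higher. Its summed reads were 1.5-fold higher (1.13 to 1.99), against a deposited difference of 2.02.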

How the data were processed

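H3K9ac ChIP-seq of 1 tg and 1 WT library was analysed. The authors' deposited values are log2 means and log2 standard deviations over a gene's probes, and other columns hold the number of probes and gene coordinates, per the file headers. Per the submitters' processing notes, CASAVA 1.8.2, BWA, FastQC and SAMtools were used, with the mouse build GRCm38 (mm10). The program that placed the probes is not given in the sources used.

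Linear values of 1-probe genes came out as whole reads (tolerance 0.01 of a read), which gave the scale (reads per 1000000 of the totals 163712 for tg and 309649 for WT, with 0 reads entered as 0.9). Reads per probe were recovered for up to 9 probes where exactly 1 set of whole numbers matched mean and standard deviation within 1.2e-06, and this was tested on simulated data. PCR copies are not told apart, so intervals and limits (3 reads of the total for a count of 0) cover counting error only. Limits on a share of probes also take the probes as independent, which probes shared between genes are not. Depth differs between the libraries, and low genes in tg rest on few reads.

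Called means a 2-fold difference, a rule of size. The members, gene lists and rule for named genes were chosen with earlier results of these data known. Named were the members with the most probes, the highest, lowest and smallest differences, extremes of length, StDev and level, up to 4 members of each list, and Gfi1b, with unnamed models passed over. Members outside that rule (Ldb1, Epb4.1, Etv6, Cbfa2t3, Klhl4, Stag2, Prickle4, Gm14872, Gm20388, Gm11084) complete a list, a count, a shared span or shared values. They were chosen after their values were seen. Alternatives were other probe thresholds, fold sizes, summed reads, centring and sets of genes. Analyses used Python 3.11.15, numpy 2.4.6, pandas 2.3.3, scipy 1.17.1 and matplotlib 3.10.9.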

Additional observations from a re-analysis of the deposited data

How the results depend on the processing

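No paired analysis was possible because each group is 1 library, and no replicate could be left out for the same reason. Against 70 higher and 58 lower members, 3 or more probes gave 182 and 123 of 620 genes, and 5 or more gave 39 and 28 of 117. The 26 members at or above the median level gave 6 and 10. A 3-fold rule gave 56 higher and 32 lower. Summed reads gave 52 higher and 34 lower of 189 members, among which the deposited difference gave 64 and 41. The median difference of 0.15 became -0.47 at or above the median level. The median length of 93052.5 bp became 58342 bp with 3 or more probes and 109330 bp with 5 or more. The median StDev became 1.56 in tg and 1.77 in WT at or above the median level, and 1.29 in WT with 3 or more probes. Counting identical genes once, leaving out unnamed models, joining overlapping members, centring, and leaving out members that overlap Gm20388 (the last added after seeing the data) kept both counts within 1.5 times. By summed reads, also added after seeing the data for single genes, 46 of 57 named genes were the same, 10 moved and Zbtb25 reversed (-0.13 on the log2 scale). The sign also changed in Hoxa9, Arid1a and Rnf31, counted among those that moved. It changed as well in Irgm2, a and Tnrc6b, which had small differences and are counted as the same. The cause was not tested. With 1 library per group, no spread between animals is known. A probe with 0 reads allows up to 18.3 scaled reads in tg and 9.69 in WT (3 reads), so low probes are measured less finely in tg.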
